A study of Homo sapiens with 2 samples.

Results

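The 4 inhibitor of DNA binding genes ID1, ID2, ID3 and ID4, the inhibitors SMAD6, SMAD7 and BAMBI and the ligands BMP2 and BMP4 were followed in A549 cells grown as spheroids or as a monolayer. These 9 genes were taken by name among 19775 genes measured. The platform annotation listed a member on 19 probe sets, of which 18 carried that gene alone and 1 carried ID2 together with the pseudogene ID2B. A549 is a human lung adenocarcinoma cell line. Spheroid cells were kept in suspension for 12 days in DMEM/F12 without serum, to which N2 supplement, EGF at 20 ng/ml and bFGF at 10 ng/ml were added, and monolayer cells were kept attached for 12 days in DMEM with 10% FBS. Serum, growth factors, N2, base medium and attachment thus differ at once between the cultures, and their effects cannot be told apart. Each culture gave RNA for 1 Affymetrix array (Human U133 plus 2.0), so that no difference between the cultures had a replicate check and no test was run. A free-text note on the 2 samples mentions hepatoma cells treated with a compound, whereas the titles give the media and the cell line field names A549. Those 2 fields were used, and the spheroid and monolayer forms were taken from the paper's description of these media.

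Bone morphogenetic proteins bind serine/threonine kinase receptors of type I and type II, which phosphorylate SMAD1, SMAD5 and SMAD9. These SMADs enter the nucleus with SMAD4 and switch on the ID genes, which are among the most direct targets of the pathway. ID proteins have a helix-loop-helix but no basic region, so they pair with E proteins such as TCF3, TCF4 and TCF12 and keep them off DNA, which holds back differentiation. SMAD6 and SMAD7 block the receptors or their SMADs, and BAMBI is a receptor-like protein without a kinase domain. All 3 are themselves induced by the ligands and so act as feedback inhibitors.

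The 4 ID genes had lower signals in spheroid culture, and their promoters are shown because these genes moved in the same direction. The sequences run from 250 bases before to 50 bases after the transcription start, 5′ to 3′ on the strand of the gene, and come from RefSeq in build GRCh38.p14. ID1 lies at chr20:31605039-31605338 on the plus strand, ID2 at chr2:8681806-8682105 on the plus strand, ID3 at chr1:23559452-23559751 on the minus strand and ID4 at chr6:19837120-19837419 on the plus strand. Capitals mark matches, on either strand, to GGCGCC and CAGAC, which are letters bound by SMADs, and to TATAAA and CCAAT, which are general promoter motifs.
ID1: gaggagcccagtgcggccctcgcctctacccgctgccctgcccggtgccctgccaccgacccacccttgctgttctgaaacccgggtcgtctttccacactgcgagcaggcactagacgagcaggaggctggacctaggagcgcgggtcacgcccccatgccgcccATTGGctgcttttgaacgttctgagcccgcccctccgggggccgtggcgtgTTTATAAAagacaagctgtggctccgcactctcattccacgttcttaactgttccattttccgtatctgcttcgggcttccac
ID2: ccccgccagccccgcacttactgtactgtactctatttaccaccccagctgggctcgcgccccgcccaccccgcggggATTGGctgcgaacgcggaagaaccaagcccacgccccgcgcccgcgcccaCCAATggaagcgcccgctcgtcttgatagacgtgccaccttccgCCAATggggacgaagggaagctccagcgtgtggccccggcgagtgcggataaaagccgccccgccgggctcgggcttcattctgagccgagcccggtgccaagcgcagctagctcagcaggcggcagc
ID3: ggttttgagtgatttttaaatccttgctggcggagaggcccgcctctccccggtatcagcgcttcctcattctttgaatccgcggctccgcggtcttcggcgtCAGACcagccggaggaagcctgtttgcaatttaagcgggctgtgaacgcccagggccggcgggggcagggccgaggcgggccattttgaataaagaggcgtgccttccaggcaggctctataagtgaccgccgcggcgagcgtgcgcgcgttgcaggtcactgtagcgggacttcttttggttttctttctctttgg
ID4: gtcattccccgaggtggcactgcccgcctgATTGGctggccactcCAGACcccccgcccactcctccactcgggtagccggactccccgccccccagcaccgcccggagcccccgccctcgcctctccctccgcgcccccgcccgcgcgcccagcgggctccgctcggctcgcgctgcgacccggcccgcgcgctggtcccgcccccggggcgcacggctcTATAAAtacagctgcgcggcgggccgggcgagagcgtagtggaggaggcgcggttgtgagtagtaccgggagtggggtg

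GGCGCC was in none of the 4 windows, while 19.2% of 35116 RefSeq promoters of this length held it. CAGAC was in the windows of ID3 and ID4, and in 45.3% of all promoters. TATAAA was in the windows of ID1, where matches on the 2 strands overlap, and ID4, against 11.5% of all promoters. CCAAT was in those of ID1, ID2 (3 matches) and ID4, against 34.6%. The longer string CAGCCAAT was chosen after the sequences were read, so its presence among them was fixed by that choice. It was in the windows of the same 3 genes and in 3.71% of all promoters, and it overlaps CCAAT. The promoter window of SMAD6, which is not shown, held it too. A match is a description of the letters and not of a bound site. Sequence outside the windows was not searched, so the absence of a motif holds for these windows only. The percentage of G and C was 62.7 for ID1, 69.0 for ID2, 59.7 for ID3 and 76.3 for ID4, against a median of 58.7 over all promoters.

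All 4 ID genes were lower in spheroid culture, by 2.22-fold to 8.74-fold. ID4, which is also a regulator of neural and mammary progenitors, had a signal of 422 in spheroid culture and 3685 in monolayer culture on its brightest probe set, 8.74-fold lower (log2 ratio -3.13). This was the 52nd lowest ratio of 13048 genes for which a ratio could be given. The other ID4 probe sets were lower as well. Probe set 209293_x_at read 320.0 in spheroid culture and 870.0 in monolayer culture, 2.72-fold lower. Probe set 209292_at read 89.2 in spheroid culture and 632 in monolayer culture. Probe set 226933_s_at read 65.3 in spheroid culture and 508 in monolayer culture. Their spheroid signals lay below the floor, the median signal of that array, which was 119 for spheroid culture and 108 for monolayer culture. Values below the floor were raised to it, which makes these ratios lower bounds, at least 5.31-fold and at least 4.26-fold lower. The fifth ID4 probe set, 229386_at, was below the floor in both cultures (65.3 in spheroid and 102 in monolayer culture) and has no ratio.

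ID2, which restrains E proteins in many epithelial and lymphoid cells, was 3.06-fold lower, with a signal of 3233 in spheroid culture and 9909 in monolayer culture on 201565_s_at. Its other probe set, 201566_x_at, read 1286 in spheroid culture and 6560 in monolayer culture, 5.10-fold lower. Suffixes _s_at and _x_at mark probe sets whose probes can also bind related transcripts, and both ID2 probe sets carry one. The probe set annotated with ID2 and ID2B, 213931_at, read 465 in spheroid culture and 671 in monolayer culture and was not assigned to either gene. It had the same direction with a smaller difference, 1.44-fold lower. The log2 ratio of ID2 was -1.62, and after quantile normalization it was -1.56, within the 3-fold limit that was used to count genes.

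ID1 and ID3, the members induced by BMP in most cell types, were lower to nearly the same degree. ID1 had a signal of 11183 in spheroid culture and 25020.5 in monolayer culture, 2.24-fold lower (log2 ratio -1.16). ID3 had a signal of 9417 in spheroid culture and 20868 in monolayer culture, 2.22-fold lower (log2 ratio -1.15). Each was read from a single _s_at probe set, and their log2 ratios differed by 0.01. Neither reached the 3-fold limit. ID1, ID2 and ID3 were bright on both arrays. There were 1037 genes with a geometric mean signal of at least 5000. Of these, 36 (3.47%) were at least 2-fold lower, the 3 ID genes included, and 39 (3.76%) were at least 2-fold higher. The limit of 5000 was set after the values were seen, so the inclusion of the 3 ID genes was fixed in advance and is only a description.

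**Figure D1:**
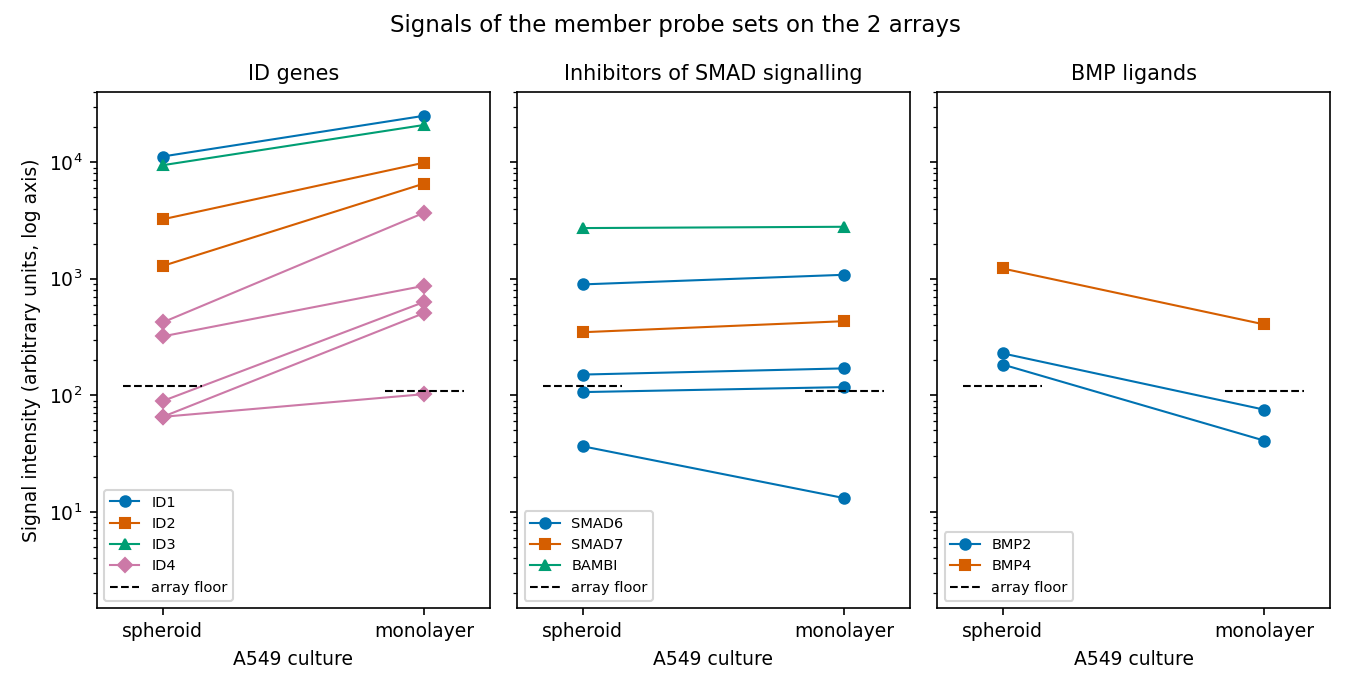
Signal intensity on a log axis for each of the 18 probe sets annotated with a single member, in spheroid culture (left) and monolayer culture (right). Each line is 1 probe set, colours and symbols mark the gene, and dashed lines are the floors of the arrays (119 and 108). Lines of the ID genes climb toward monolayer culture, those of BMP2 and BMP4 descend, and those of SMAD7, BAMBI and the 3 brightest SMAD6 probe sets are nearly flat.

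The ID genes differed among themselves in how far they were lower. On the log2 scale the ratio of ID2 exceeded that of ID4 by 1.51, the ratio of ID1 exceeded that of ID4 by 1.97, and the ratio of ID1 exceeded that of ID2 by 0.45. As a guide to such differences, for 5453 genes with 2 or more probe sets above both floors, the SD of the difference between the ratios of the brightest pair was 0.50. The probe sets of ID4 above the floor in both cultures themselves spread from -3.13 to -1.44 on that scale. Those of ID4 with a bound were at -2.41 or lower and at -2.09 or lower. ID2 was at -1.62 on its brightest probe set and at -2.35 on the other. The place of ID4 below ID2 thus rests on which probe set of each gene is read. All 8 ID probe sets with a ratio were lower, as was the remaining one without a floor. Over the 4 genes the log2 ratios had a median of -1.39, against 0.03 over all 13048 genes.

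The feedback inhibitors stood close to equal signals in the cultures. SMAD6, the inhibitor most selective for BMP receptors, had a signal of 894 in spheroid culture and 1081 in monolayer culture, 1.21-fold lower (log2 ratio -0.27). Its probe set 213565_s_at read 151 in spheroid culture and 170.1 in monolayer culture, 1.13-fold lower. Probe set 209886_s_at read 106 in spheroid culture and 118 in monolayer culture, and 209887_at read 36.5 in spheroid culture and 13.1 in monolayer culture, too close to or below the floors for a ratio. SMAD7, which inhibits both BMP and TGF-beta receptors, had a signal of 347 in spheroid culture and 432 in monolayer culture, 1.24-fold lower (log2 ratio -0.31). BAMBI had a signal of 2719 in spheroid culture and 2791 in monolayer culture, 1.03-fold lower (log2 ratio -0.04). All 3 differences were smaller than the spread of log2 ratios over 11528 genes above the floor in both cultures, whose robust SD was 0.53. With 1 array per culture this does not show that the inhibitors were equal.

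The ligands had higher signals in spheroid culture, opposite to the ID genes. BMP4, a ligand of lung bud and endoderm development, had a signal of 1224 in spheroid culture and 405 in monolayer culture, 3.02-fold higher (log2 ratio 1.59). It was read from a single probe set, 211518_s_at. This ratio lay just past the limit, and it was 1.45 after scaling to array medians, 1.36 with the floor at the 75th percentile and 1.56 after quantile normalization, below 3-fold. BMP2, a ligand known for bone formation, had a signal of 229 in spheroid culture and 75.2 in monolayer culture on 205289_at, and 184 in spheroid culture and 40.8 in monolayer culture on 205290_s_at. The monolayer signals were below the floor, and BMP2 was thus at least 2.12-fold and at least 1.70-fold higher. BMP2 was the only member that had a ratio through 1 array alone, while the other 8 were above the floor in both cultures.

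Of the 9 members, 2 (ID2 and ID4) were at least 3-fold lower, 1 (BMP4) was at least 3-fold higher and 6 lay between. Over all 19775 genes, 279 (1.41%) were at least 3-fold lower and 309 (1.56%) were at least 3-fold higher. Since all 9 members had a ratio, the share among the 13048 genes with a ratio is the closer background, and these counts were 2.14% and 2.37% of them. At a limit of 2-fold, 4 members, the ID genes, were lower and 2, the ligands, were higher, against 728 and 908 genes in all, 3.68% and 4.59% of all genes or 5.58% and 6.96% of those with a ratio. By probe sets, 5 of 18 were at least 3-fold lower and 1 was at least 3-fold higher, against 1.01% and 1.19% of 41091 probe sets with a single gene. All 5 belong to ID2 and ID4, so they are repeated readings of the 2 genes already counted and not separate members. The members share a pathway and were chosen with earlier results of these arrays known, so these counts describe the 2 arrays and carry no p-value. The median log2 ratio over the 9 members was -0.31.

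**Figure D2:**
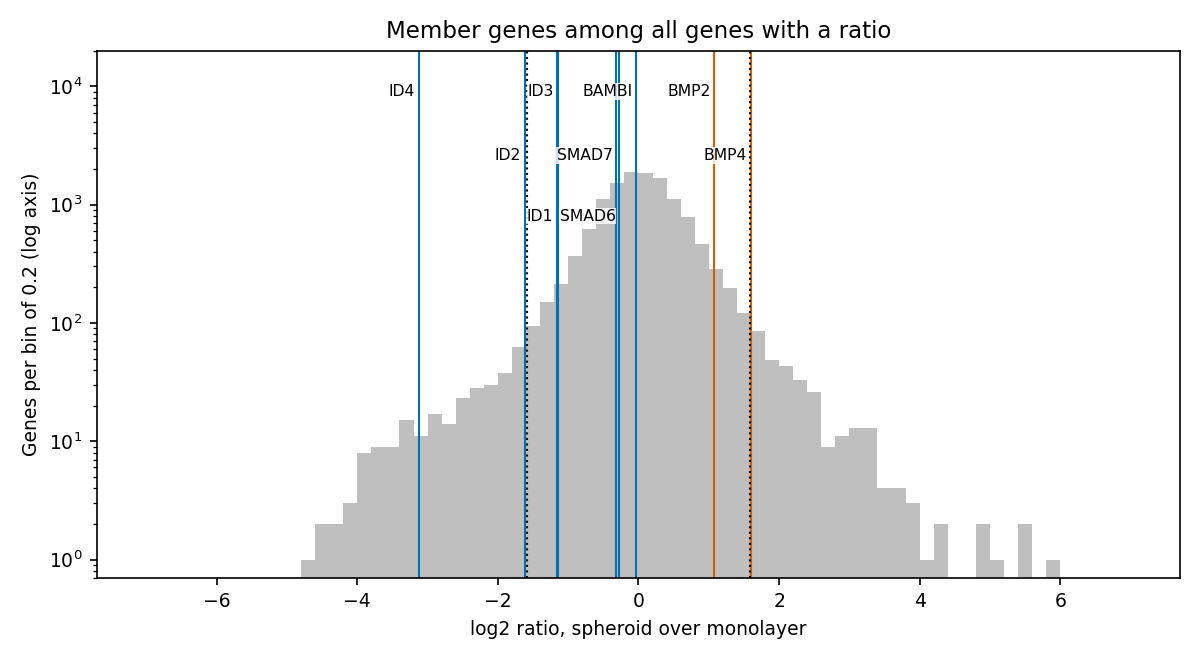
Number of genes, on a log axis, by log2 ratio (spheroid over monolayer) in bins of 0.2, for 13048 genes with a ratio. Vertical lines mark the members (blue, lower in spheroid culture; orange, higher), and the dotted lines stand at the 3-fold limits. ID4 stands at -3.13 in the left tail, ID2 and BMP4 stand next to the dotted lines, and SMAD6, SMAD7 and BAMBI stand inside the bulk of genes.

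The rest of the pathway was read from 9 lists with 109 genes, of which 103 were measured. Of these, 3 were at least 3-fold lower (FSTL1, MSX2 and SMAD3), 0 were at least 3-fold higher, 71 lay between and 29 had no ratio. Over all genes, 1.41% were at least 3-fold lower and 1.56% at least 3-fold higher. No p-value was computed for these counts. At the limit of 2-fold, 9 genes of the lists were lower and 2, BMP6 and HEY1, were higher. Over all genes, 3.68% were at least 2-fold lower and 4.59% at least 2-fold higher, or 5.58% and 6.96% of those with a ratio. Counting any difference, 43 were lower and 31 were higher, where 47.9% of the 13048 genes with a ratio were lower, and the median log2 ratio was -0.27. This median depended on the processing. It was -0.08 with no floor, -0.06 with the geometric mean of all probe sets and -0.05 without _s_at and _x_at probe sets. With array medians it was -0.39.

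Among the other BMP ligands, 5 of 10 measured had no ratio, 2 were higher and 3 lower by less than 3-fold. BMP6, the ligand that controls hepcidin in the liver, had a signal of 1049 in spheroid culture and 421 in monolayer culture, 2.49-fold higher, and its other 2 probe sets were below the floor in both cultures. BMP8B had 288 in spheroid culture and 385 in monolayer culture, 1.34-fold lower. BMP6 therefore shared the direction of BMP2 and BMP4.

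Receptors and co-receptors were not far from equal signals, with 0 of 11 past 3-fold and a median log2 ratio of 0.28 over the 8 with a ratio. BMPR2, the main type II receptor, was 1.56-fold higher (1828 in spheroid and 1168 in monolayer culture), but of its 5 probe sets above the floor 3 were higher and 2 were lower. ACVR1, a type I receptor, was 1.49-fold higher (1753 in spheroid and 1180.3 in monolayer culture). RGMA, a co-receptor, was at least 1.33-fold lower. The 4 SMADs that carry the BMP signal had lower spheroid signals on their brightest probe sets. SMAD1 had 968 in spheroid culture and 985 in monolayer culture, SMAD5 had 1464 in spheroid culture and 1706 in monolayer culture, and SMAD4 had 1191 in spheroid culture and 1422 in monolayer culture. Not all of their probe sets ran that way, with 1 of 5 for SMAD5 higher. Of the other SMAD4 probe sets, 1 had a signal of 515 in both cultures, 1 was at least 2.15-fold higher and 2 were below the floor in both. Averaging all 5 on the log scale gave SMAD4 a log2 ratio of 0.23. In that average the 2 below the floor count at the ratio of the floors, a log2 ratio of 0.14, and the 2.15-fold is a lower bound. SMAD9, at 67.4 in spheroid culture and 161 in monolayer culture, was at least 1.35-fold lower.

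Of the secreted antagonists, which bind ligands outside the cell, 5 of 8 genes with a ratio were lower and 3 higher, and 7 had no ratio. Their median log2 ratio was -0.77. FSTL1, a follistatin-like glycoprotein, had a signal of 717 in spheroid culture and 3175 in monolayer culture, 4.43-fold lower on the single probe set of 3 above the floor. NBL1, a DAN family antagonist, was 2.86-fold lower (244 in spheroid and 697 in monolayer culture), with log2 ratios from -1.66 with array medians, past 3-fold, to -0.50 with the floor at the 75th percentile. Its spheroid signal was below that floor, so the -0.50 is a lower bound of the size. FSTL3, an activin antagonist, was 2.19-fold lower (1036 in spheroid and 2272 in monolayer culture). FST, which encodes follistatin, was 1.54-fold higher. NOG, which encodes noggin, had 113 in spheroid culture, below the floor, and 174 in monolayer culture.

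Intracellular brakes other than SMAD6 and SMAD7 had 0 of 13 past 3-fold, with 8 lower and 4 higher. TGIF2, a corepressor of SMADs, was 2.76-fold lower (128 in spheroid and 353 in monolayer culture), and NEDD4L, a ubiquitin ligase, was 2.69-fold lower with all 4 probe sets above the floor lower. PMEPA1, which is induced by TGF-beta and holds back its SMADs, was 1.72-fold higher, and its 3 probe sets all had higher spheroid signals. The ubiquitin ligase SMURF1 was 1.48-fold higher on its brightest probe set, but its probe sets disagreed, with 232665_x_at 4.34-fold higher and 215458_s_at 1.36-fold lower. The ubiquitin ligase SMURF2 was 1.35-fold lower with 4 of 4 probe sets lower. Among other BMP targets, 6 of 8 genes with a ratio were lower. MSX2, a homeobox gene induced by BMP, had a signal of 691 in spheroid culture and 2162 in monolayer culture, 3.13-fold lower, and 341 in spheroid culture and 774 in monolayer culture on its second probe set, 2.27-fold lower. With the geometric mean of all their probe sets MSX2 (log2 ratio -0.90) and FSTL1 (-0.62) were within 3-fold. That mean counts probe sets below the floor in both cultures at the ratio of the floors, a log2 ratio of 0.14. HEY1, also a Notch target, was 2.62-fold higher (625 in spheroid and 239 in monolayer culture), but its log2 ratio of 1.39 was 0.39 with the floor at the 75th percentile. Its monolayer signal was below that floor, so the 0.39 is a lower bound. JUNB, an immediate-early gene, was 1.69-fold higher.

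**Figure D3:**
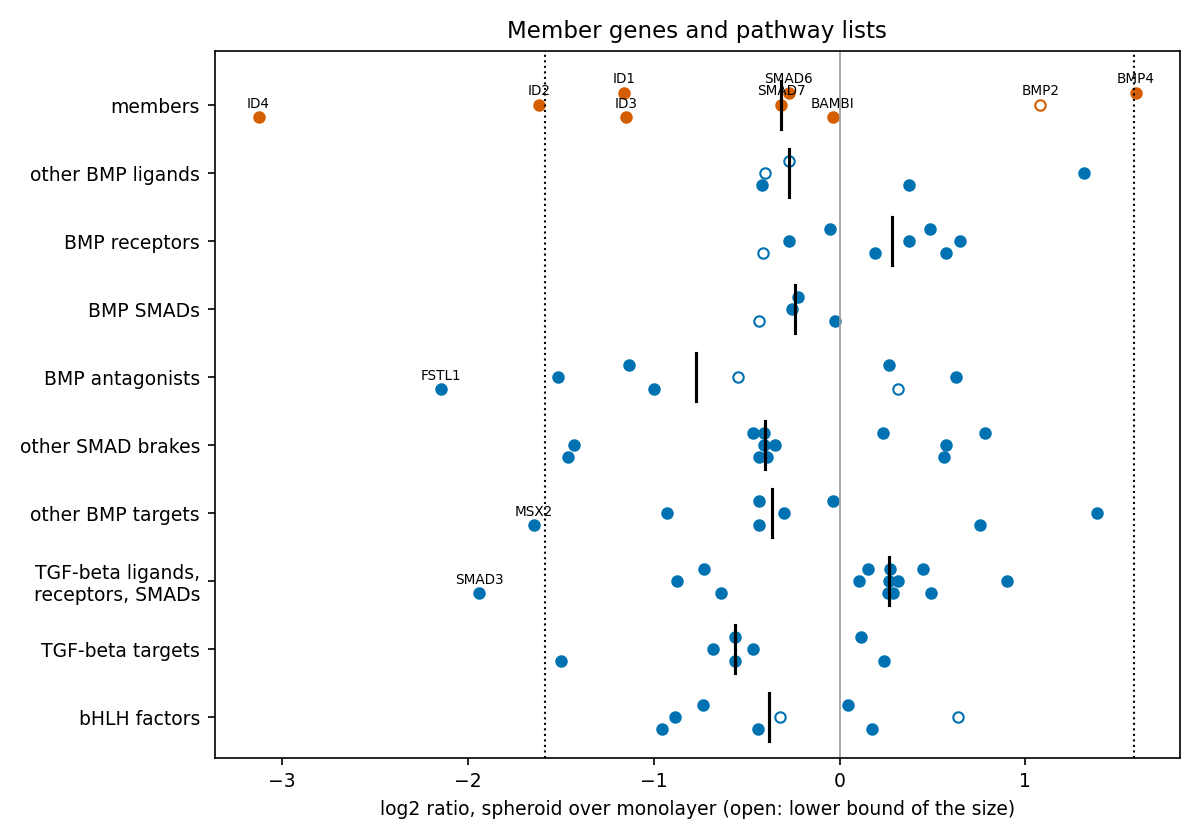
Log2 ratio (spheroid over monolayer) for the 9 members (orange, top row) and for the genes of 9 pathway lists (blue), each point being 1 gene with a ratio. Open points are lower bounds of the size, black bars are medians, dotted lines stand at the 3-fold limits, and names are given for members and for genes past 3-fold. FSTL1, MSX2 and SMAD3 are the genes of the lists past 3-fold, all lower.

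On the TGF-beta side, which uses SMAD2 and SMAD3, the mediator SMAD3 was the gene furthest from equal signals. It had a signal of 845 in spheroid culture and 3238 in monolayer culture, 3.83-fold lower, and all 4 of its probe sets were at least 3.63-fold lower. SMAD2 was 1.56-fold lower (3782 in spheroid and 5888 in monolayer culture), with 6 of 6 probe sets lower. TGFB1, the main ligand, and the receptors TGFBR1 and TGFBR2 were 1.20-fold, 1.21-fold and 1.40-fold higher on their brightest probe sets. The other TGFBR2 probe set was 1.40-fold lower, and 1 of the other 2 TGFBR1 probe sets was lower (158 in spheroid and 181 in monolayer culture). Of 9 measured TGF-beta targets, 5 were lower, 2 higher and 2 without a ratio. TGFBI, a matrix protein named for its induction by TGF-beta, had a signal of 8949 in spheroid culture and 25339.5 in monolayer culture, 2.83-fold lower, and BHLHE40, a transcriptional repressor, was 1.18-fold higher.

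The E proteins, with which ID proteins pair, were read as well, in a list with other helix-loop-helix factors. TCF12 was 1.35-fold lower (2623 in spheroid and 3552 in monolayer culture) and TCF4 was 1.13-fold higher (1319 in spheroid and 1167 in monolayer culture). TCF3 was 1.66-fold lower (713 in spheroid and 1185 in monolayer culture), with 7 of 9 probe sets above the floor lower, but it was higher by 0.22 on the log2 scale without _s_at and _x_at probe sets. Among the tissue-specific factors of the list, TWIST1, a mesenchymal factor, was 1.94-fold lower (138 in spheroid and 267 in monolayer culture), and LYL1, a hematopoietic factor, was at least 1.55-fold higher. Of 14 measured genes in this list 0 were past 3-fold.

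The cell type was read from marker lists. All 5 epithelial markers were above the floor in both cultures, with KRT18 at 39147 in spheroid culture and 50068 in monolayer culture. KRT19 was the 1 marker of this list past 3-fold, 4.64-fold higher (889 in spheroid and 191 in monolayer culture), while EPCAM was 1.42-fold higher, and CDH1 1.67-fold, KRT18 1.28-fold and KRT8 1.21-fold lower. Of 8 alveolar type II markers 5 had a ratio, and NKX2-1, LAMP3 and SLC34A2 were below the floor in both. The summed signal of all 8 was 2066 in spheroid culture and 1265 in monolayer culture. This sum and those of the lists below include markers below the floor. Of 8 hepatocyte markers 5 were higher and 1 lower, with a summed signal of 7042 in spheroid culture and 1461 in monolayer culture, led by ALB (4639 in spheroid and 23.4 in monolayer culture). Fibroblast, endothelial and leukocyte markers summed to 948, 559 and 286 in spheroid culture and to 1247, 305 and 631 in monolayer culture, with COL1A2, PDGFRB, CDH5, VWF and PTPRC below the floor in both. Above the floor in both were COL1A1 (618 in spheroid and 852 in monolayer culture), DCN (132 and 209), PECAM1 (475 and 270) and CD3E (144 and 140). CD14 had 111 in spheroid culture, below the floor, and 437 in monolayer culture. The part of these markers in the differences of the members was not tested. On these bulk arrays, a change in the share of cells that express a gene and a change in its RNA per cell cannot be told apart.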

How the data were processed

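RNA of A549 cells from 1 spheroid and 1 monolayer culture was measured on 2 Affymetrix arrays. The authors deposited linear signal intensity values, for which the processing notes name MAS5 and GCOS and the methods name GeneSpring GX. The deposited values of 54675 probe sets were already scaled, with a mean of 500.1 on each array without the lowest and highest 2%. Probe sets were named from the platform annotation, with current symbols found through the Entrez identifier in 41043 of 41097 cases with a single gene, while 1801 with several genes and 11777 with none were not assigned. Signals below the median of each array over probe sets other than 62 controls were raised to it, and log2 ratios are spheroid over monolayer. The brightest probe set (mean log2 signal over both arrays) stood for each gene. Of 19775 genes, 6546 were at or below the floor on both arrays, and 181 had only 1 signal above its floor with a sign set by the unequal floors. Both kinds were given no ratio.

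Genes past 3-fold were counted. Levels of different probe sets were compared only for the floor, the choice of the brightest probe set, the limit of 5000 and the sums of markers. Named genes were the members, 18 core genes of the pathway (those not measured are not analysed here), and of each list those past 3-fold (up to 3 per direction) or the highest and lowest. Other genes were named after their values were seen. With 2 arrays a pattern is a single ratio, so genes were not ranked by likeness. The members and lists were chosen with earlier results of these data known. Promoters were matched by symbol for 8 of 9 members (not BMP2). The steps were tested on simulated data. Python 3.11.15, numpy 2.4.6, pandas 2.3.3 and matplotlib 3.10.9 were used. Precision is limited by the number of arrays. Alternatives covered the floor, the scaling, the probe set rule and the limit.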

Additional observations from a re-analysis of the deposited data

How the results depend on the processing

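All 9 members kept their direction under each alternative that gave a value: no floor, floors at the 25th and 75th percentile, division of each array by its median, quantile normalization, the geometric mean over all probe sets per gene, and leaving out _s_at and _x_at probe sets. The last gave no ratio for ID1, ID2, ID3, SMAD6 and BMP4, and the floor at the 75th percentile none for BMP2 and SMAD7. The geometric mean counted probe sets below the floor in both cultures at the ratio of the floors, a log2 ratio of 0.14. Log2 ratios ran from -3.27 to -1.79 for ID4, -1.98 to -1.56 for ID2, -1.30 to -1.07 for ID1, -1.29 to -1.04 for ID3, 0.92 to 1.61 for BMP2 (the highest with no floor or the 25th percentile, where its monolayer signal lies below the array median) and 1.36 to 1.59 for BMP4. Those of the inhibitors ran from -0.41 to -0.07 for SMAD6, -0.45 to -0.31 for SMAD7 and -0.18 to -0.01 for BAMBI, so their direction rests on small differences. The 2 members at least 3-fold lower became 1 with quantile normalization, without _s_at and _x_at probe sets and at 5-fold, and 4 at 2-fold. The 1 member at least 3-fold higher became 2 with no floor, with the 25th percentile and at 2-fold, and 0 with the 75th percentile, array medians, quantile normalization, without _s_at and _x_at probe sets and at 5-fold. With the 75th percentile the log2 ratio of BMP4, 1.36, is a lower bound, because its monolayer signal was below that floor. Of member probe sets, 5 lower became 3 with the 75th percentile and at 5-fold, 2 without _s_at and _x_at probe sets and 8 at 2-fold. The 1 higher became 3 with no floor and with the 25th percentile, 2 at 2-fold and 0 with the 75th percentile, array medians, quantile normalization, without _s_at and _x_at probe sets and at 5-fold.

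Genes of the pathway lists at least 3-fold higher numbered 2 with no floor, 1 with the 25th percentile and 2 at 2-fold, against 0. Those lower numbered 6 with array medians, 1 with the geometric mean, 9 at 2-fold and 0 at 5-fold, against 3. With the geometric mean, FSTL1 (-0.62) and MSX2 (-0.90) were within 3-fold. The log2 ratio of BMP6 was then 0.53. Each of these 3 genes has probe sets below the floor in both cultures, which pull its average toward the ratio of the floors (0.14). Over all genes, those higher numbered 1312 with no floor, 558 with the 25th and 109 with the 75th percentile, 205 with the geometric mean, 908 at 2-fold and 103 at 5-fold, and those lower numbered 1014, 421 and 150 with these floors, 728 at 2-fold and 126 at 5-fold. Dividing by array medians moved the median log2 ratio of all genes from 0.03 to -0.10. The cause of the other changes was not tested. No paired analysis was possible because each culture has a single array.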
